A study of Mus musculus with 3 samples.

Results

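The 10 genes described here encode receptors and identity proteins of the endothelium, the cell layer that lines blood vessels, in the mouse lung. They were chosen by gene symbol (Tek, Ptprb, Kdr, Calcrl, Ednrb, Cdh5, Pecam1, Sox17, Car4 and Vwf), with earlier results of these data known. All 10 were present among the 23183 genes with a value in each library. Lung homogenates of female mice of the BALB/c strain gave 3 RNA-sequencing libraries, 1 per group, called OVA+PM10 lung, PM10 lung and control lung below. The OVA+PM10 library came from mice given PM10 particles (a certified dust reference material in saline) into the nose 4 times over 2 weeks, and also ovalbumin (OVA, an egg-white protein used to model allergic asthma). OVA went into the peritoneum with an aluminium adjuvant, on day 0 or 1 (the labels give both) and on day 14, and then into the nose on days 21, 22 and 23. The PM10 library came from mice given the particles without OVA, and the control library from mice that carry only the label control, without mention of a vehicle. No group given OVA without particles was analysed here, so effects of OVA by itself and of the combination cannot be told apart. The labels give 5 mice per group, particle doses of 100 or 200 µg, and ages of 10 weeks in one place and 5 to 6 weeks in another. They do not say which dose was sequenced, or how many mice contributed RNA to each library. Since each group is 1 library, the differences below have no replicates behind them, p-values are not given, and a ratio sets one library against another rather than one condition against another.

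Pulmonary capillaries have 2 kinds of endothelial cell in the mouse. Aerocytes lie against the alveolar wall where gas is exchanged and carry Car4, Ednrb and much Kdr, and general capillary cells serve as the progenitors. Angiopoietin 1 acts through the receptor kinase Tie2, encoded by Tek, to keep vessels quiet and tight, and VEGF acts through VEGFR2, encoded by Kdr, to promote survival, growth and permeability. VE-cadherin, encoded by Cdh5, holds the cells together at adherens junctions.

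Expression values were taken as FPKM, fragments per kilobase of transcript and per 1000000 mapped, a unit inferred from the values. It divides by transcript length, so that levels of different genes can be set side by side within a library. Between libraries the sums of FPKM differed, and ratios moved with transcript length. A ratio with the length trend removed is the ratio minus the running median of all genes of similar length, and it is given beside the results that it changes most. The lowest values implied a depth of about 15.6 times 1000000 reads in OVA+PM10 lung, 13.4 times in PM10 lung and 21.1 times in control lung. With the longest annotated transcript as length, the values of the 10 genes then rest on about 221 reads (Sox17, OVA+PM10) to 22425 reads (Ptprb, control). Ratios are the log2 of (FPKM + 1) in the first-named library over that in the second. A gene was counted as higher or lower when this ratio reached 2-fold and the higher library had at least 1 FPKM. The median ratio of all genes past that minimum was 0.02 (PM10 over control), 0.00 (OVA+PM10 over control) and -0.03 (OVA+PM10 over PM10).

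The libraries also differed in what tissue they held. Control lung carried skeletal muscle genes (10 of 10 genes on the marker list, summed at 32.9 FPKM in OVA+PM10 lung, 22.6 FPKM in PM10 lung and 3951 FPKM in control lung). It also carried genes of squamous epithelium (7 of 7, at 1.05, 0.212 and 4219 FPKM in the same order of libraries) and more adipose RNA (116, 9.13 and 329 FPKM). Cardiac muscle genes summed to 362, 177 and 443 FPKM, and 6 of 9 were at least 2-fold lower in PM10 lung than in control lung. Of 9 fibroblast genes 4 were lower and 2 higher in that comparison, or 3 and none with the length trend removed. Rn45s, the precursor of ribosomal RNA, was at 8570.2 FPKM in PM10 lung and listed at 0 in the other libraries, and its part in the PM10 ratios was not tested. Muscle and fat have blood vessels of their own, and their part in the endothelial values was not tested. Endothelial genes were represented in every library: none of 20 further pan-endothelial genes was listed at 0 in any of them. Their summed level was 1023 FPKM in OVA+PM10 lung, 3280.3 FPKM in PM10 lung and 1733 FPKM in control lung. A few high genes weigh most in these sums, such as Cldn5 (221, 838 and 265 FPKM) and Ramp2 (194, 659 and 345 FPKM). The median log2 ratio of the 20 genes was 0.28 in PM10 over control and -0.90 in OVA+PM10 over control.

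Set against control lung, OVA+PM10 lung had lower values for all 10 genes, and 7 of them were at least 2-fold lower. All 5 receptor and receptor-associated genes (Tek, Ptprb, Kdr, Calcrl and Ednrb) and both junction genes (Cdh5 and Pecam1) were among the 7, whereas Sox17, Car4 and Vwf stayed within 2-fold. Among all genes, 8.68% were at least 2-fold lower and 9.95% at least 2-fold higher in this comparison. Since the 10 genes were chosen with earlier results known, such shares describe the background and are not a test. The median log2 ratio of the 10 genes was -1.57. In bulk tissue, fewer endothelial cells and less RNA per endothelial cell cannot be told apart.

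In PM10 lung, 3 of the 10 genes were lower and 1 was higher than in control lung. Kdr, Cdh5 and Ptprb were at least 2-fold lower, Car4 was at least 2-fold higher, and the other 6 genes stayed within 2-fold. Among all genes, 13.9% were at least 2-fold lower and 13.6% at least 2-fold higher, so the 1 higher gene of 10 lies near the share of all genes. With the length trend removed neither Car4 (0.26) nor Ptprb (-0.35) passed 2-fold. The median log2 ratio of the 10 genes was -0.55. Between the exposed libraries, OVA+PM10 was at least 2-fold below PM10 for Tek, Calcrl, Ednrb, Sox17 and Car4, and Kdr was the single gene with a ratio above 0. The background was 9.0% of all genes lower and 11.8% higher, and the median of the 10 genes was -1.0. Each pair of these comparisons shares a library, so their values are not independent of each other.

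**Figure D1:**
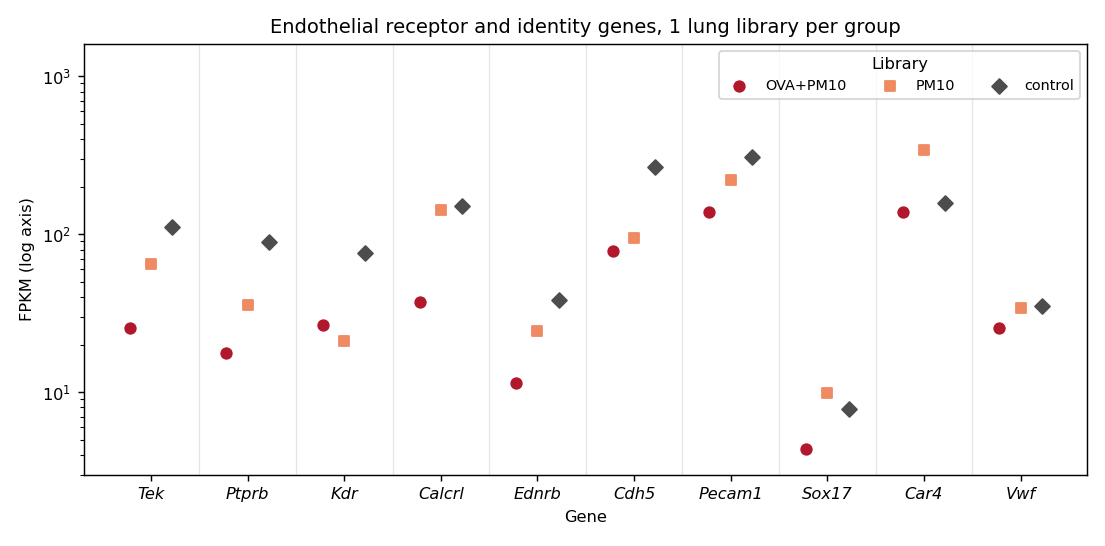
FPKM (log axis) of the 10 endothelial genes in OVA+PM10 (circles), PM10 (squares) and control (diamonds) lung, 1 library per group. OVA+PM10 lung is the lowest for 9 genes and control lung the highest for 8, with Car4 and Sox17 highest in PM10 lung and Kdr lowest there.

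The angiopoietin receptor gene Tek (chromosome 4, 94739289 to 94874976, plus strand, mm10) was at 25.5 FPKM in OVA+PM10 lung, 65.1 FPKM in PM10 lung and 110.4 FPKM in control lung. Its log2 ratio was -2.07 (OVA+PM10 over control), -0.75 (PM10 over control) and -1.32 (OVA+PM10 over PM10). Ptprb (chromosome 10, 116275523 to 116389535, plus strand) encodes VE-PTP, an endothelial phosphatase that removes phosphate from Tie2 and from VE-cadherin complexes. It was at 17.6 FPKM in OVA+PM10 lung, 35.5 FPKM in PM10 lung and 89.0 FPKM in control lung, with log2 ratios of -2.28 for OVA+PM10 and -1.30 for PM10 over control. Both genes therefore held the same order of libraries, and their ratio to each other moved little, with Tek at 1.45 times Ptprb in OVA+PM10 lung, 1.84 times in PM10 lung and 1.24 times in control lung.

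Of 3 other genes of the angiopoietin system with at least 1 FPKM, 2 (Angpt1 and Tie1) were at least 2-fold lower in OVA+PM10 lung than in control lung and none was higher. Tie1 stood at -0.95 with the length trend removed, which leaves 1 lower. In PM10 lung none of the 3 passed 2-fold in either direction. Angpt1, the activating ligand of Tie2, was at 6.33 FPKM in OVA+PM10 lung, 14.4 FPKM in PM10 lung and 23.2 FPKM in control lung. Tie1, the orphan co-receptor of Tie2, was at 26.8, 48.9 and 57.0 FPKM in these libraries. Angpt2, the context-dependent antagonist that endothelium releases, was low throughout, at 3.58 FPKM in OVA+PM10 lung, 6.28 FPKM in PM10 lung and 5.12 FPKM in control lung. Angpt2 thus stood at 0.566 times Angpt1 in OVA+PM10 lung, 0.436 times in PM10 lung and 0.22 times in control lung.

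Kdr (chromosome 5, 75932827 to 75978458, minus strand) was lower in both exposed lungs, most so in PM10 lung. It was at 26.5 FPKM in OVA+PM10 lung, 21.2 FPKM in PM10 lung and 75.9 FPKM in control lung. Its log2 ratio against control was -1.48 for OVA+PM10 and -1.79 for PM10, the lowest of the 10 genes in the PM10 comparison. Between the exposed libraries its ratio was 0.31. Flt1, the VEGF receptor that also acts as a decoy for VEGF-A, was likewise low in both exposed libraries, at 6.88 FPKM in OVA+PM10 lung, 6.49 FPKM in PM10 lung and 30.1 FPKM in control lung. Its exposed values were close (log2 ratio 0.07), and with the length trend removed this ratio was -0.25, against 0.17 for Kdr. Kdr was 3.86 times as high as Flt1 in OVA+PM10 lung, 3.27 times in PM10 lung and 2.53 times in control lung.

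Vegfa, the main ligand of both receptors and in lung largely a product of alveolar epithelium, was at 29.1 FPKM in OVA+PM10 lung, 49.7 FPKM in PM10 lung and 109.6 FPKM in control lung. Of the 9 VEGF ligands and receptors other than Kdr, 4 were at least 2-fold lower in OVA+PM10 lung than in control lung (Vegfa, Flt1, the lymphatic receptor Flt4 and the co-receptor Nrp1) and none was higher. In PM10 lung 3 were lower (Vegfa, Flt1 and Flt4) and 1, the placental growth factor gene Pgf, was higher. With the length trend removed Flt4 passed 2-fold in neither comparison (-0.92 in OVA+PM10 and -0.52 in PM10 over control), and Pgf stood at 0.71 in PM10 over control. Nrp1 separated the exposed libraries, at 41.4 FPKM in OVA+PM10 lung, 115 FPKM in PM10 lung and 102 FPKM in control lung.

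Calcrl (chromosome 2, 84330626 to 84425411, minus strand) encodes the receptor that responds to adrenomedullin or to CGRP, depending on which RAMP protein accompanies it. Its value was 37.1 FPKM in OVA+PM10 lung, 142 FPKM in PM10 lung and 151 FPKM in control lung. The PM10 and control values were close (log2 ratio -0.09), and the OVA+PM10 value was lower than both, with a log2 ratio of -1.99 against control and -1.91 against PM10. The ratio between exposed lungs was the lowest of the 10 genes in that comparison and lay below all but 0.996% of the genes tested. Calcrl thus differed from Kdr, which was low in both exposed libraries.

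The partners of Calcrl did not share one pattern. Ramp2, which makes it an adrenomedullin receptor and is itself abundant in endothelium, was at 194 FPKM in OVA+PM10 lung, 659 FPKM in PM10 lung and 345 FPKM in control lung. Ramp1, the partner for CGRP, was at 12.0, 17.9 and 7.40 FPKM and Ramp3, another adrenomedullin partner, at 10.2, 13.4 and 3.60 FPKM in these libraries. The ligand gene Adm was at 2.21 FPKM in OVA+PM10 lung, 8.46 FPKM in PM10 lung and 4.36 FPKM in control lung, and Calca, the gene of calcitonin and CGRP, at 6.82, 4.74 and 1.26 FPKM. Of the 6 genes of this list with at least 1 FPKM, 2 were at least 2-fold higher (Calca and Ramp3) and 1 lower (Ackr3, a scavenger receptor for adrenomedullin) in OVA+PM10 lung than in control lung. In PM10 lung 3 were higher (Calca, Ramp1 and Ramp3) and none was lower. With the length trend removed these counts became 1 higher (Calca) and 3 lower (Ackr3, Adm and Ramp2) in OVA+PM10 lung. In PM10 lung none of the 6 then passed 2-fold, with Calca at 0.26, Ramp1 at 0.95 and Ramp3 at 0.87.

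Ednrb (chromosome 14, 103814625 to 103844402, minus strand) encodes the endothelin B receptor, which clears endothelin 1 and triggers nitric oxide release from endothelium. It was at 11.4 FPKM in OVA+PM10 lung, 24.3 FPKM in PM10 lung and 38.1 FPKM in control lung, with log2 ratios against control of -1.66 for OVA+PM10 and -0.63 for PM10. Ednra, the endothelin A receptor of smooth muscle, varied less, at 11.2, 9.13 and 14.4 FPKM. Ednrb was 1.02 times as high as Ednra in OVA+PM10 lung, 2.66 times in PM10 lung and 2.65 times in control lung. Of the 5 endothelin genes other than Ednrb with at least 1 FPKM, 3 were at least 2-fold lower in OVA+PM10 lung than in control lung. They were Edn1 (4.26 FPKM, 11.3 FPKM in PM10 lung and 11.8 FPKM in control lung), Edn3, and the converting enzyme gene Ece1, and the related enzyme gene Ece2 was higher. In PM10 lung none was lower and Ece2 was again higher. Ece1 stood at -0.90 in OVA+PM10 over control with the length trend removed, which leaves 2 lower there.

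The promoters of 4 genes are shown, out of the 5 with a matched RefSeq promoter. Tek and Calcrl were at least 2-fold lower in OVA+PM10 lung than in PM10 and in control lung, as was Ednrb, which is not shown. Kdr was low in both exposed libraries and Car4 was high in PM10 lung. Each promoter is the 250 bases before the RefSeq start site on GRCm38, the assembly that mm10 names, 5′ to 3′ on the gene's own strand. Capitals mark GGAA or, on the other strand, TTCC, the core bound by ETS factors such as ERG and FLI1, which specify endothelium. The window of Tek lies at chr4:94739039-94739288 (plus strand), that of Calcrl at chr2:84425267-84425516 (minus), Kdr at chr5:75978456-75978705 (minus) and Car4 at chr11:84957504-84957753 (plus).
Tek: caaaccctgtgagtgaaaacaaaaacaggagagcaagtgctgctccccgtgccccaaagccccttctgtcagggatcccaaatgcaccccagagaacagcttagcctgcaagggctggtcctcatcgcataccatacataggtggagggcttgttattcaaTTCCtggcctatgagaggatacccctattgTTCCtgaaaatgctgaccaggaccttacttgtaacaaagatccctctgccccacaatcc
Calcrl: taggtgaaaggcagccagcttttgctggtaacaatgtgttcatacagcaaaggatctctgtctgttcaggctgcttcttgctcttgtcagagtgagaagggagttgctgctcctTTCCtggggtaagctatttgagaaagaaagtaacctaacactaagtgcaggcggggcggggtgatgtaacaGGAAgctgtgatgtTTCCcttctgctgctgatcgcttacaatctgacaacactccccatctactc
Kdr: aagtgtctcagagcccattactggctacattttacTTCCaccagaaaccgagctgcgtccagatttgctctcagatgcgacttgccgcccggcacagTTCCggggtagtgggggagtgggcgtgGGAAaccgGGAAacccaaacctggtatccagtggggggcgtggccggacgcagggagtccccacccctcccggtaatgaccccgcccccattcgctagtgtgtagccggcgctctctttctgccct
Car4: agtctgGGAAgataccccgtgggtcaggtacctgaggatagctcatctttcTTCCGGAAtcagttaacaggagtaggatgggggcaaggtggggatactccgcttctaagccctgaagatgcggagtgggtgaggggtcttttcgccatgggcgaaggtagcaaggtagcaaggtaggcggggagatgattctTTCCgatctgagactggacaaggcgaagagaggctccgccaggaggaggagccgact

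RefSeq promoters were matched for 5 of the 10 genes, and all 5 held the core, with 2 matches in Tek, 3 in Calcrl, 4 in Kdr, 4 in Car4 and 2 in Ednrb. The RefSeq start can differ from the end of the gene span given above. Much of the Calcrl window and all of the Ednrb window lie inside those spans. The core is short and common: 93.4% of 32851 promoters held it in the same window, with a median of 3 matches. The sequence AACAAT on either strand, a site for SOX factors, was in the windows of Tek and Calcrl and in 9.42% of all promoters. The GC box GGGCGG was in the windows of Calcrl and Kdr and in 32.7% of all promoters. Such matches describe the sequence and do not show binding.

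Cdh5 (chromosome 8, 104101625 to 104144511, plus strand) was at 78.8 FPKM in OVA+PM10 lung, 94.9 FPKM in PM10 lung and 265 FPKM in control lung. Its log2 ratio against control was -1.74 for OVA+PM10 and -1.47 for PM10, so both exposed libraries were low, and they differed from each other by -0.27. Pecam1 (chromosome 11, 106654217 to 106750628, minus strand) encodes CD31, an adhesion molecule at endothelial contacts that leukocytes and platelets carry too. It was at 139 FPKM in OVA+PM10 lung, 221 FPKM in PM10 lung and 308 FPKM in control lung, with log2 ratios against control of -1.14 and -0.47. Cdh5 stood at 0.565 times Pecam1 in OVA+PM10 lung, 0.429 times in PM10 lung and 0.861 times in control lung. Of 10 leukocyte genes, 6 were at least 2-fold higher in OVA+PM10 lung and 5 in PM10 lung than in control lung, and none was lower. These counts became 3 in OVA+PM10 lung and 2 in PM10 lung with the length trend removed. Their summed level was 2325, 2306 and 695 FPKM in the OVA+PM10, PM10 and control libraries, and their part in the Pecam1 values was not tested.

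Other junction genes did not follow Cdh5 as one group. Of 10 such genes, 2 were at least 2-fold lower in OVA+PM10 lung than in control lung (Esam, an immunoglobulin-type adhesion molecule, and Jup, plakoglobin) and none was higher. In PM10 lung 2 were higher and 1 was lower than in control lung. The higher ones were Cldn5, the main endothelial claudin, at 221 FPKM in OVA+PM10 lung, 838 FPKM in PM10 lung and 265 FPKM in control lung, and Icam2, at 87.0, 320.5 and 123 FPKM. The lower one was Ctnnd1, the p120 catenin that stabilises VE-cadherin at the membrane, at 51.2 FPKM in OVA+PM10 lung, 29.5 FPKM in PM10 lung and 102 FPKM in control lung. With the length trend removed neither Cldn5 (0.95) nor Icam2 (0.58) passed 2-fold in PM10 over control, while Ctnnd1 did (-1.17). Among all genes, 8.68% were lower in OVA+PM10 over control, and 13.6% were higher and 13.9% lower in PM10 over control. The counts of these 10 junction genes lie near those shares.

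Sox17 (chromosome 1, 4490931 to 4497354, minus strand) encodes a transcription factor of arterial endothelium and had the lowest level of the 10 genes in every library. It was at 4.37 FPKM in OVA+PM10 lung, 9.88 FPKM in PM10 lung and 7.81 FPKM in control lung, with log2 ratios against control of -0.71 and 0.30 and a ratio of -1.02 between the exposed libraries. Related factors were measured at higher levels, with Sox18 at 46.2 FPKM in OVA+PM10 lung, 95.2 FPKM in PM10 lung and 91.8 FPKM in control lung. Of 14 endothelial transcription factor genes, 7 were at least 2-fold lower in OVA+PM10 lung than in control lung and none was higher. They included Epas1, the HIF-2α gene, at 145 FPKM in OVA+PM10 lung, 334 FPKM in PM10 lung and 446 FPKM in control lung, and the ETS factor Erg, at 8.92, 17.0 and 34.5 FPKM. The single gene of this list past 2-fold in PM10 lung was the shear-responsive factor Klf2, at 33.8 FPKM in OVA+PM10 lung, 149 FPKM in PM10 lung and 65.9 FPKM in control lung. Its ratio was 0.71 in PM10 over control with the length trend removed.

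Car4 (chromosome 11, 84957786 to 84966044, plus strand) encodes carbonic anhydrase 4, an enzyme held on the capillary surface that speeds carbon dioxide exchange. It was at 138 FPKM in OVA+PM10 lung, 341 FPKM in PM10 lung and 158 FPKM in control lung. Its log2 ratio was -0.20 (OVA+PM10 over control), 1.10 (PM10 over control) and -1.30 (OVA+PM10 over PM10). It took place 3 among the 10 genes in control lung and place 1 in PM10 lung. Car4 and Ednrb, both aerocyte genes in the mouse, did not keep their proportion, with Car4 at 12.1 times Ednrb in OVA+PM10 lung, 14.1 times in PM10 lung and 4.15 times in control lung. With the length trend removed their log2 ratios were -0.71 for Car4 and -1.53 for Ednrb in OVA+PM10 over control, and 0.26 and -0.50 in PM10 over control.

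Of 8 other aerocyte genes, none passed 2-fold in either direction between the PM10 and control libraries, and 6 were at least 2-fold lower in OVA+PM10 lung than in control lung. Apln, the ligand apelin, was at 3.49 FPKM in OVA+PM10 lung, 14.4 FPKM in PM10 lung and 12.6 FPKM in control lung. Emp2, a membrane protein that alveolar type 1 cells express as well, was at 85.1, 299 and 289 FPKM. Mouse alveolar macrophages also express Car4. Of 10 alveolar macrophage genes, a list added after the values had been seen, 3 exceeded control lung at least 2-fold in PM10 lung and 1 was lower, or 3 and 2 with the length trend removed. In OVA+PM10 lung 3 were at least 2-fold higher than in control lung and 1 was lower, or 2 and 1 with the length trend removed. Their summed level was 752 FPKM in OVA+PM10 lung, 572 FPKM in PM10 lung and 400.4 FPKM in control lung. Much of that sum was 1 gene, Ear2, at 458, 230.3 and 128 FPKM in the same order of libraries. The part of these macrophage genes in the Car4 value was not tested.

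Vwf (chromosome 6, 125546774 to 125686679, plus strand) encodes von Willebrand factor, the platelet-tethering protein of larger vessels and veins, which megakaryocytes make too. It varied least over the 3 libraries, at 25.5 FPKM in OVA+PM10 lung, 33.9 FPKM in PM10 lung and 35.3 FPKM in control lung, with log2 ratios against control of -0.46 and -0.06. With the length trend removed these became -0.09 and 0.75, so that the direction turned in PM10 over control. As Cdh5 was lower in both exposed libraries, Vwf stood at 0.323 times Cdh5 in OVA+PM10 lung, 0.357 times in PM10 lung and 0.133 times in control lung. The 10 platelet genes summed to 59.9 FPKM in OVA+PM10 lung, 149 FPKM in PM10 lung and 59.3 FPKM in control lung, with Pf4 alone at 45.9, 93.7 and 30.4 FPKM. Of 7 with at least 1 FPKM, 3 were at least 2-fold higher in PM10 lung than in control lung, and none with the length trend removed. The part of the platelet genes in the Vwf values was not tested. Of 7 other haemostasis genes of endothelium with at least 1 FPKM, 1 was at least 2-fold lower in OVA+PM10 lung than in control lung. It was Thbd, thrombomodulin, at 50.7 FPKM in OVA+PM10 lung, 117 FPKM in PM10 lung and 187 FPKM in control lung. Selp, P-selectin, which is stored with Vwf, was lowest in PM10 lung, at 2.81 FPKM in OVA+PM10 lung, 0.042 FPKM in PM10 lung and 1.51 FPKM in control lung. These values are low, and the PM10 value rests on very few reads. In PM10 over control Selp was the 1 lower gene of this list, and Adamts13 the 1 higher gene, at 1.39, 5.18 and 1.62 FPKM in the same order of libraries.

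By vessel type, list medians for OVA+PM10 over control were lowest for capillary genes. Of 9 general capillary genes, 8 were at least 2-fold lower and none was higher, with a median log2 ratio of -1.55, and the aerocyte genes had a median of -1.39. Sema3c, a semaphorin, was at 17.2 FPKM in OVA+PM10 lung, 50.2 FPKM in PM10 lung and 64.1 FPKM in control lung. The exception among general capillary genes was Gpihbp1, which anchors lipoprotein lipase in capillaries, at 169.7 FPKM in OVA+PM10 lung, 634 FPKM in PM10 lung and 183 FPKM in control lung. Of 10 arterial genes 3 were lower and none was higher (median -0.81), or 2 lower with the length trend removed. Of 6 venous genes with at least 1 FPKM 2 were lower and none was higher (median -0.06), or 1 of 6 with the length trend removed. Ackr1, the chemokine-binding receptor of venules, had values of 5.91 FPKM in OVA+PM10 lung, 1.43 FPKM in PM10 lung and 2.97 FPKM in control lung. Of 6 lymphatic genes 3 were lower and none was higher (median -0.80), or 2 lower with the length trend removed.

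The alveolar type 1 cell shares the gas-exchange wall with capillaries. Of 8 of its genes, 5 were at least 2-fold lower in OVA+PM10 lung than in control lung (median -1.31), and in PM10 lung 3 were lower (median -0.16), with none higher in either. All 8 were lower in OVA+PM10 lung, and 1 in PM10 lung, with the length trend removed. Ager, the receptor RAGE, was at 639 FPKM in OVA+PM10 lung, 1777 FPKM in PM10 lung and 1228 FPKM in control lung, a log2 ratio of -0.94 for OVA+PM10 over control, within 2-fold. Of 12 mural cell genes, 8 were at least 2-fold lower in PM10 lung than in control lung (median -1.55), against 4 lower and 1 higher in OVA+PM10 lung (median -0.03), or 2 lower and 1 higher with the length trend removed.

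**Figure D2:**
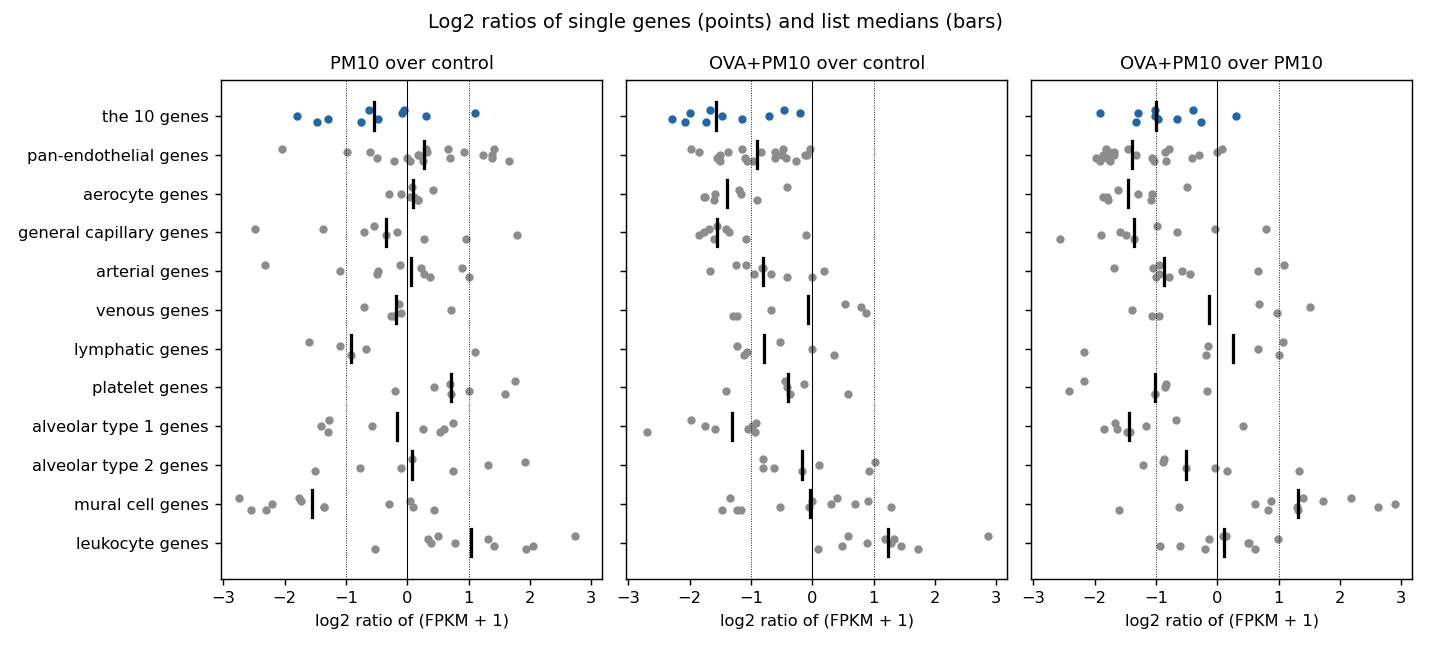
Log2 ratios of (FPKM + 1) for single genes (points) and their median (bars) in the 10 endothelial genes and in 11 lists of other endothelial and neighbouring cell types, for each pair of libraries, with dotted lines at 2-fold. In OVA+PM10 over control all 20 pan-endothelial genes lie below 0 and all 10 leukocyte genes above it.

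The 20 pan-endothelial genes gave a second view of the same libraries. Relative to control lung, 9 were at least 2-fold lower and none was higher in OVA+PM10 lung, with a median log2 ratio of -0.90, and relative to PM10 lung 13 were lower and none was higher (median -1.40). In PM10 over control 5 were higher and 1 was lower (median 0.28), where the 10 genes had a median of -0.55. Removal of the length trend left 2 of the 20 higher and 1 lower in PM10 over control (median 0.27), and the 10 genes had a median of -0.39. Relative to the median of these 20 genes within each library, Kdr stood at a log2 difference of -0.37 in OVA+PM10 lung, -2.02 in PM10 lung and 0.23 in control lung. For Cdh5 these differences were 1.16, 0.09 and 2.01, and for Tek -0.43, -0.44 and 0.76. Car4 stood at 1.96, 1.93 and 1.27. Within this yardstick Tek, Ptprb, Kdr, Calcrl, Ednrb, Cdh5 and Pecam1 were lower in both exposed libraries than in control lung, and Car4 was higher in both. The yardstick is not corrected for length. With the length trend removed Car4 (0.26) and Calcrl (0.21) stood about level with the median of the 20 genes (0.27) in PM10 over control. In OVA+PM10 over control that median was -0.96, with Pecam1 (-1.12) and Kdr (-1.17) close below it, Ptprb (-1.88) farthest below and Car4 (-0.71) above.

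**Figure D3:**
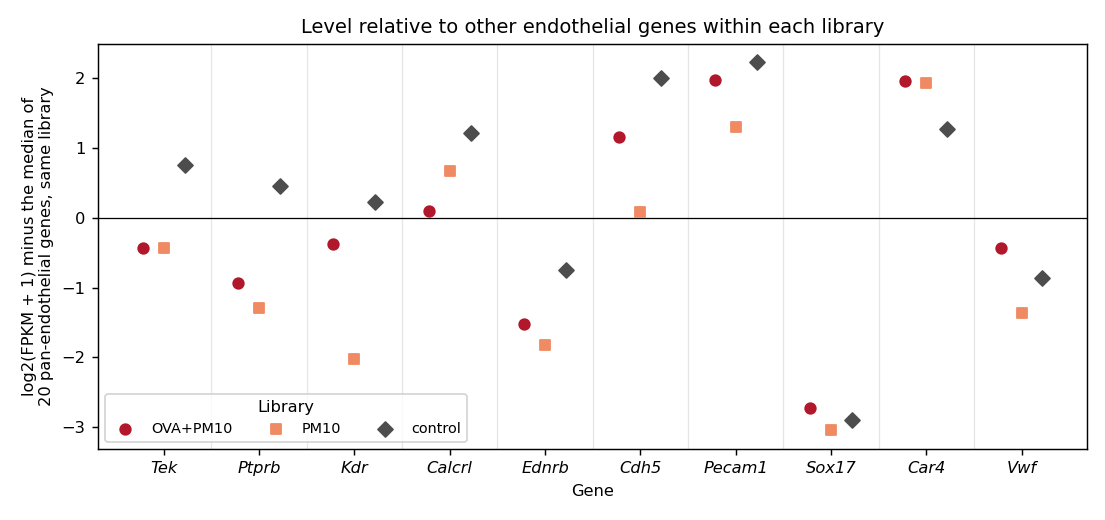
Level of each of the 10 genes as log2(FPKM + 1) minus the median of 20 pan-endothelial genes in the same library, for OVA+PM10 (circles), PM10 (squares) and control (diamonds) lung. Kdr in PM10 lung lies at -2.02, against 0.23 in control lung, while Car4 lies at 1.96 and 1.93 in the exposed libraries, against 1.27 in control lung.

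Transcript length moved with these ratios. In PM10 over control the shortest of 10 length classes (transcripts up to 1278 bases) had a median ratio of 1.08 and the longest (from 6615 bases) one of -0.77. For OVA+PM10 over control these medians were 0.62 and -0.35. The longest transcripts of the 10 genes ran from 1256 bases for Car4 to 11911 bases for Ptprb. With a running median over length removed, Car4 kept a ratio of 0.26 in PM10 over control and Ptprb one of -0.35, so neither reached 2-fold. Kdr (-1.30) and Cdh5 (-1.33) did, against a background of 11.3% of genes lower and 7.69% higher. The same 7 genes stayed at least 2-fold lower in OVA+PM10 over control, against 8.39% of genes lower and 7.59% higher, with a median of -1.35 over the 10. Between the exposed lungs 5 were lower, against 6.66% of genes lower and 12.0% higher, with Ptprb (-1.51) in and Car4 (-0.88) out.

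**Figure D4:**
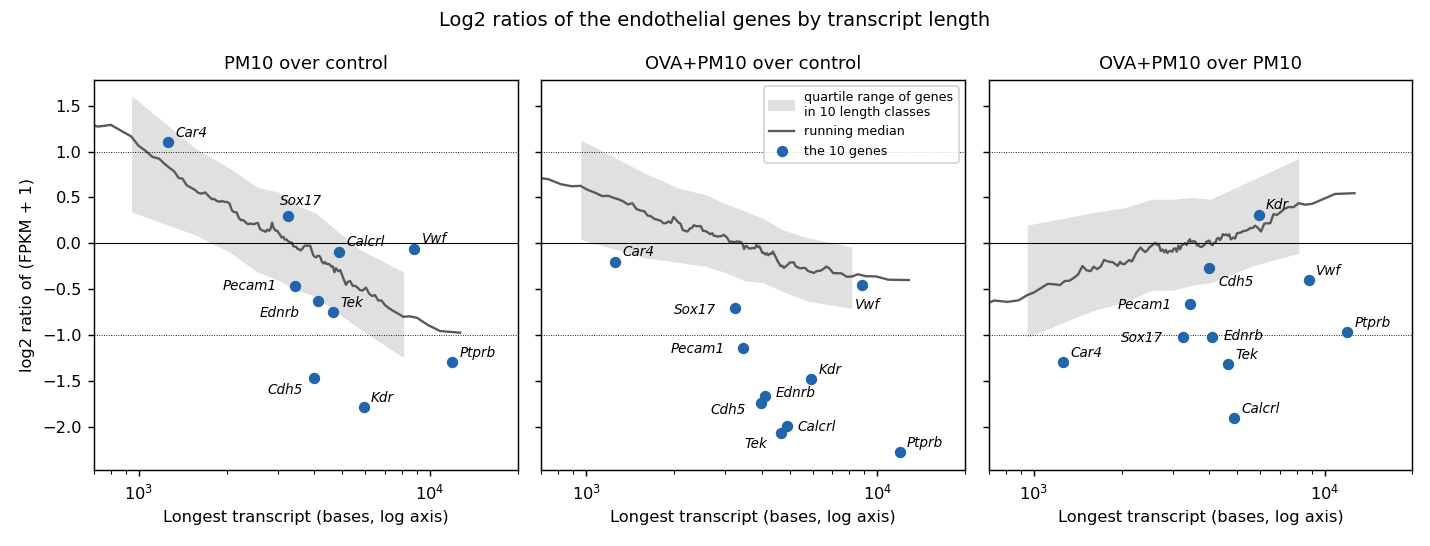
Log2 ratio of (FPKM + 1) of the 10 genes (points) against the length of the longest annotated transcript (log axis), for each pair of libraries, with the running median of all genes (line) and the range between the quartiles in 10 length classes (band). Car4 at 1256 bases lies close to the line in PM10 over control, and 7 genes lie more than 2-fold below the line in OVA+PM10 over control.

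Bringing the libraries to an equal sum of FPKM changed the counts, because the sums differed (855739 in OVA+PM10 lung, 1293180 in PM10 lung and 546315 in control lung). On that scale 8 genes were lower and none was higher in PM10 over control, where 52.3% of all genes were lower and 1.91% higher, and Car4 had a ratio of -0.13. Between the exposed lungs 1 gene, Calcrl, was then at least 2-fold lower, where 2.52% of all genes were lower and 24.5% higher.

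Within each library the 10 genes spanned 31.9-fold (OVA+PM10), 34.5-fold (PM10) and 39.4-fold (control) between the highest and the lowest. Pecam1 and Car4 led in OVA+PM10 lung at nearly the same level (1.01-fold apart), Car4 led in PM10 lung, and Pecam1 and Cdh5 led in control lung. Kdr, Tek and Vwf lay within 1.04-fold of each other in OVA+PM10 lung. Kdr was in place 9 of 10 in PM10 lung and in place 7 in control lung. Together the 10 genes summed to 504 FPKM in OVA+PM10 lung, 989 FPKM in PM10 lung and 1238 FPKM in control lung.

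Among 9978 other genes with at least 5 FPKM in the highest library, the 5 closest to the median profile of the 10 over the 3 libraries were Meis1, Dusp3, Edil3, Angptl2 and Notch4. Likeness was the Euclidean distance between centred log2 values, from 0.126 for Meis1 to 0.14 for Notch4. Notch4, a Notch receptor of endothelium, was at 5.50 FPKM in OVA+PM10 lung, 10.1 FPKM in PM10 lung and 16.7 FPKM in control lung. With only 3 libraries such likeness is common: 1052 of these genes lay closer to the median profile than the median of the 10 genes themselves (0.665).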

How the data were processed

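The deposited files give 1 value per gene for each of the 3 lung libraries, and the unit, FPKM as calculated by the authors, was inferred from the values because the headers do not state it. TopHat and the build mm10 are named in the submitters' processing notes. How reads were counted, on which annotation and with what use of strand is not stated there or in the labels. Annotated transcripts overlap Ptprb and Sox17, and an antisense gene listed at 0 in every library overlaps Cdh5, so reads of these could be misassigned. Groups came from the agent label. From the FPKM, log2 ratios of value + 1 were computed with Python 3.11.15, pandas 2.3.3 and numpy 2.4.6, with no further scaling and a minimum of 1 FPKM in the higher library. The scripts' output was tested on simulated data. With 1 library per group no test was made.

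GENCODE M21 on GRCm38 gave lengths and coordinates, matched by symbol for 22110 genes (95.4%), and the length trend was a running median over 501 genes. Depth was read from the spacing of FPKM times length in genes with 1 transcript, and is approximate. The 10 genes, the 23 gene lists and the comparisons were chosen with earlier results of these data known, and a list of alveolar macrophage genes was added later. The Vegfd gene is listed in the files under its older symbol. Named were the 10 genes, a fixed set of ligands and co-receptors, per list the gene with the highest level and up to 4 with the largest ratios, and the 5 closest profiles. Ackr3 and the values of Sox18 were chosen outside this rule after being seen. Alternatives were 0.25 or 5 FPKM in place of the 1 added, no minimum or 5 FPKM, thresholds of 1.5-fold and 4-fold, scaling to the same sum of 1000000 or by the median ratio, centring on the 20 pan-endothelial genes, and removal of the length trend.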

Additional observations from a re-analysis of the deposited data

How the results depend on the processing

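Of the alternatives, scaling by the median ratio, no minimum and a minimum of 5 FPKM changed no call of the 10 genes in any comparison. In PM10 against control the count of 1 gene at least 2-fold higher became 0 with scaling to the same sum, with centring on the pan-endothelial genes, with the length trend removed and at 4-fold. There the count of 3 lower became 8 with scaling to the same sum, 5 at 1.5-fold, 4 with that centring, 2 with the length trend removed and 0 at 4-fold, and the median of -0.55 became -1.78 with scaling to the same sum, under which Car4 turned to -0.13. In OVA+PM10 against control the count of 7 lower became 9 with scaling to the same sum, 8 at 1.5-fold, 3 with centring on the pan-endothelial genes and 2 at 4-fold, and the median of -1.57 became -2.22 with scaling to the same sum and -0.67 with that centring. Scaling to the same sum shifts that comparison by about -0.65, and the share of all genes lower on that scale was not computed for it. Shares were not computed in any comparison for the other thresholds, the other added values or the centring, so those counts have no background beside them. In OVA+PM10 against PM10 the count of 5 lower became 7 at 1.5-fold, 6 with 0.25 FPKM added, 3 with 5 FPKM added, 1 with scaling to the same sum and 0 at 4-fold. Centring on the pan-endothelial genes, which shifts that comparison by 1.40, gave 0 lower and 2 higher there, with a median of 0.40, and Tek (0.08), Ednrb (0.37), Sox17 (0.38) and Car4 (0.10) turned positive. These shifts follow from the scaling or threshold itself, and the cause of the change with length was not tested. No paired analysis was possible because each group has 1 library, which also left no replicate to leave out.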
